A study of Rattus norvegicus with 12 samples.

Results

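Acetylation of lysine 23 of histone H3 (H3K23ac) was profiled in primary rat vascular smooth muscle cells, the contractile cells of the artery wall, with the CUT&Tag method, and the peaks of cells labelled SIANK were compared with those of cells labelled NC. The H3K23ac peak lists are 4 of the 12 in the series and were taken by the mark in their names: NC 1, NC 2, SIANK 1 and SIANK 2. The other 8 lists hold H3K27ac and H4K5ac in the same conditions. Every group is the same kind of primary cell from Rattus norvegicus, and NC and SIANK are its only treatment labels. The sources used here do not say what either label stands for, the strain, age or sex of the animals, or whether the numbered libraries came from separate cultures. Any p-value between conditions is thus set against differences among libraries that could be technical.

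In CUT&Tag, an antibody against a histone mark brings a transposase to the chromatin that carries it, and the DNA cut there is sequenced. H3K23ac lies on the tail of histone H3, where acetylation removes the positive charge of the lysine, and it is found with other acetyl marks at active promoters and enhancers. Acetyltransferases of the MOZ/MORF family can place it, histone deacetylases remove it, and bromodomain proteins such as TRIM24 can bind it. H3K27ac, used below as a second readout, marks active promoters and enhancers.

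The deposited lists place each peak and give its length, with no height, score or read count, so sequencing depth is unknown, and the cell type cannot be checked by marker genes. NC 1, NC 2, SIANK 1 and SIANK 2 held 12909, 10720, 14356 and 17141 H3K23ac peaks, covering 11.3, 9.94, 12.6 and 17.6 Mb. Both SIANK lists were longer than both NC lists, by a ratio of geometric means of 1.33 (log2 0.42, SE 0.19, n = 2 each; exact two-sided permutation test, p = 0.333). With 2 libraries against 2, p = 0.333 is the smallest value an exact permutation test can give, so no difference between conditions in these data can pass a threshold of 0.05. The shortest peak was 304, 326, 322 and 307 bp in the 4 lists, and the smallest gap between neighbouring peaks of a list was 305, 327, 323 and 308 bp. These floors differed between libraries but overlapped between conditions. Peaks of 2000 bp or more made up 4.48% and 5.49% of the NC lists, 4.94% of SIANK 1 and 8.47% of SIANK 2, so SIANK 2 stood apart from the other 3 libraries in long peaks. Peak coordinates appear not to be on the GRCr8 assembly of the gene table used here. Over 15 chromosomes, 621 merged regions had positions past the final gene of that table, which alone does not prove another build. No source used here names the build, so regions are named by position and neither genes nor sequences are assigned to them.

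Merging H3K23ac peaks that overlapped by 1 bp or more gave 21414 regions. A constant region held a peak in every library, and these numbered 7420, or 34.7% of the total. A gained region held a peak in SIANK 1 and SIANK 2 but in no NC library. There were 1572 gained regions, 7.34% of all merged regions, against 20 lost regions in the reverse pattern, 0.0934%. A further 1125 regions held peaks in both SIANK libraries and in NC 1, and 1092 in both SIANK libraries and in NC 2. By contrast, 682 regions were held by both NC libraries and SIANK 2, and 30 by both NC libraries and SIANK 1. Pairs across conditions held 966 regions for NC 1 with SIANK 2 and 668 for NC 2 with SIANK 2. They held 174 for NC 1 with SIANK 1 and 82 for NC 2 with SIANK 1. Every pair with SIANK 2, the longest list, thus held more regions than any pair without it. Regions found in 1 library alone numbered 1913 for NC 1, 208 for NC 2, 2137 for SIANK 1 and 3325 for SIANK 2. NC 2, the shortest list, thus had few peaks of its own, and most of the peaks seen only in NC came from NC 1. Leaving out a library removes a requirement of each call, so the gained and lost counts then rise largely by construction. The gained count was 2706 without NC 1, 2673 without NC 2, 4964 without SIANK 1 and 3941 without SIANK 2. The lost count was 240, 1936, 53 and 746 in that order. When each list was cut to the longest 10720 of its peaks, the gained count was 508 and the lost count 284. This cut removes short peaks, most of all from SIANK 2 and none from NC 2. A region whose SIANK peaks were merely short can then count as lost, so these 2 counts are partly set by the cut.

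Gained H3K23ac peaks came from the shorter part of the SIANK lists. Their median length was 531 bp in SIANK 1 and 582 bp in SIANK 2, against 950 and 1281 bp for peaks of constant regions in the same libraries. In rank, the median gained peak stood at percentile 33.2 of all SIANK 1 peaks and at percentile 30.2 of all SIANK 2 peaks. The median gained region spanned 767 bp, longer than the 424 and 471 bp of regions held by SIANK 1 alone and SIANK 2 alone, and shorter than the 1481.5 bp of constant regions. A merged region spans the peaks of all its libraries, so its length also grows with their number.

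Ranked by the lower length percentile of their 2 peaks, the top 10 gained regions reached far into the long end of both lists. Their peaks spanned 1154 to 2179 bp in SIANK 1 and 1365 to 2638 bp in SIANK 2. The region on chromosome 5 from 142405913 to 142407519 held peaks of 1560 and 1572 bp, nearly equal in the SIANK libraries, and lay 72.7 kb from the nearest constant region. On chromosome 7, the region from 60151707 to 60153395 held peaks of 1596 and 1557 bp and lay 1998 bp from a constant region. A region on chromosome 6 from 95931722 to 95934322 held 1 peak of 1849 bp in SIANK 1 and 2 peaks with a summed length of 1789 bp in SIANK 2, 236 kb from a constant region. Another on chromosome 15, from 52011735 to 52013113, held peaks of 1368 and 1365 bp at a gap of 1176 bp. All 10 carried an H3K27ac peak in NC 2, against 50.3% of all gained regions, but the 10 were ranked by length, and a longer region has more length to overlap. In the 5 top-ranked lost regions, peaks spanned 483 to 1774 bp in NC 1 and 462 to 735 bp in NC 2. The region on chromosome 1 from 88442032 to 88442613 held a peak of 582 bp in both NC libraries. Of these 5, 1 carried H3K27ac in an NC library and 4 in a SIANK library.

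Peaks at the same places were longer in both SIANK libraries than in both NC libraries. At the 6342 constant regions with exactly 1 peak in each library, the geometric mean length was 887 bp in NC 1, 888 bp in NC 2, 945 bp in SIANK 1 and 1206 bp in SIANK 2. The NC libraries were nearly identical, SIANK 1 lay 1.07-fold above their mean and SIANK 2 lay 1.36-fold above it. The log2 ratio of SIANK to NC was 0.27 (SE 0.18, n = 2 each; exact two-sided permutation test, p = 0.333), and 0.09 within number 1 and 0.44 within number 2. Without SIANK 2 it was 0.10, and without SIANK 1 it was 0.45, so most of the difference came from 1 library. In 98.2% of these regions the 4 peaks shared at least 1 bp, and over those 6225 regions the log2 ratio was 0.27. Region by region, SIANK 2 exceeded the NC mean at 89.8% of the regions and SIANK 1 at 58.6%, while NC 1 exceeded NC 2 at 48.6%.

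The longer peaks were found in each length class, and in SIANK 2 the ratio was lowest for the longest peaks. Classes were set by the geometric mean of a region's 4 peak lengths, which favours neither condition. Under 500 bp (222 regions), the 4 libraries NC 1, NC 2, SIANK 1 and SIANK 2 had geometric means of 420, 426, 447 and 547 bp. From 500 to under 1000 bp (3289 regions), the means were 676, 667, 716 and 954 bp. From 1000 to under 2000 bp (2506 regions), they were 1199, 1216, 1287 and 1585 bp. At 2000 bp or more (325 regions), they were 2260, 2372, 2438 and 2738 bp. In every class both SIANK libraries lay above both NC libraries. The ratio of SIANK 1 to the NC mean was nearly the same in the 4 classes, at 1.06, 1.07, 1.07 and 1.05. The ratio of SIANK 2 to the NC mean was 1.29, 1.42, 1.31 and 1.18. Counted in bp, SIANK 2 peaks exceeded the NC mean by 124, 282, 377 and 422 bp from the shortest to the longest class, and SIANK 1 peaks by 24.0, 44.3, 79.7 and 123 bp. The floor of about 300 bp on listed peaks bounds how short an NC peak in the first class can be.

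The difference between classes did not exceed the spread between libraries. The log2 ratio of SIANK to NC was 0.23 (SE 0.15), 0.30 (SE 0.21), 0.24 (SE 0.15) and 0.16 (SE 0.09) in the 4 classes. The longest class minus the shortest differed between conditions by −0.07 on the log2 scale (SE 0.07, n = 2 each; exact two-sided permutation test, p = 0.667). Without SIANK 2 this difference was 0.01. How the classes are cut decides its size and direction. It was −0.55 with classes from NC lengths alone and 0.45 with classes from SIANK lengths alone, since sorting on 1 side selects regions that are long or short on that side. Classes cut by H3K27ac peak length in NC 2 and SIANK 2, which uses no H3K23ac library, gave −0.03. By these H3K27ac classes the log2 ratios of H3K23ac length were 0.23, 0.28, 0.25 and 0.20.

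**Figure D1:**
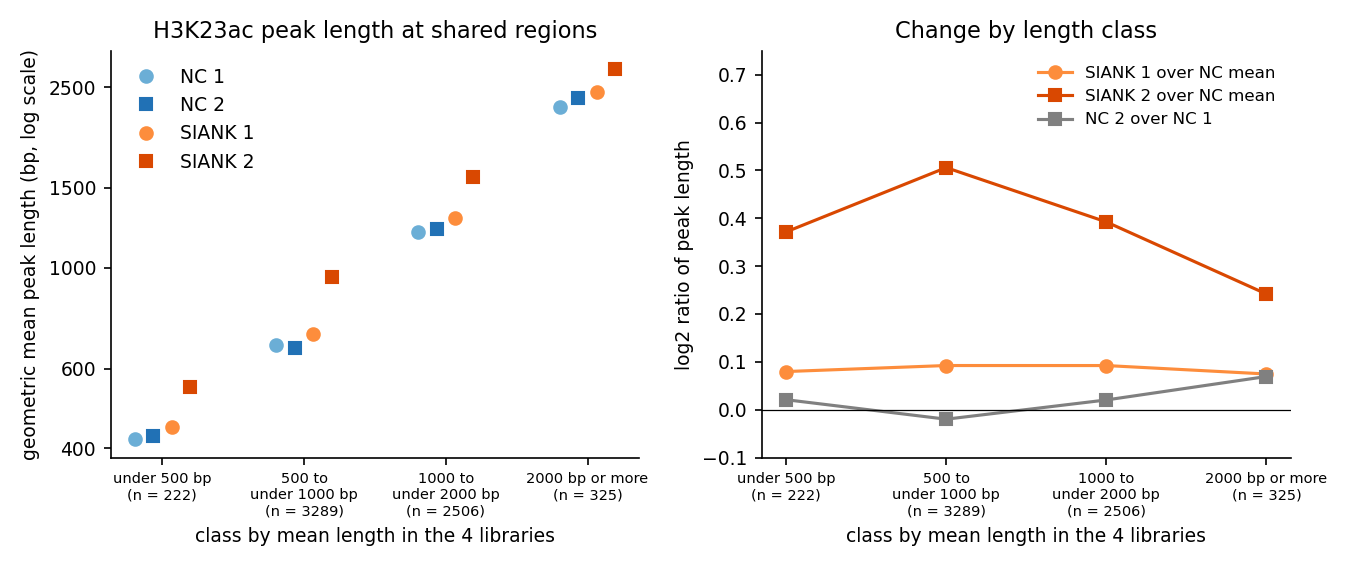
Left, geometric mean H3K23ac peak length (bp, log scale) at regions with 1 peak in each library, by length class, 1 point per library. Right, the log2 ratio of each SIANK library to the NC mean and of NC 2 to NC 1 by class. SIANK 2 sits at 0.24 to 0.51 and SIANK 1 at 0.07 to 0.09, with the NC difference at −0.02 to 0.07.

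Among the 6342 regions, 2358 had both SIANK peaks longer than both NC peaks, 37.2% of those compared, and 133 had both shorter, 2.1%. By class, the longer share was 41.0%, 35.8%, 38.7% and 36.6% from the shortest to the longest class, each near the 37.2% over all classes. Regions of any length therefore contributed at about the same rate. The longer count was 2897 without SIANK 2 and 5470 without SIANK 1, and 4050 and 4020 without NC 1 and NC 2. The shorter count was 1865, 295, 700 and 1114 in the same order. Both counts rise largely by construction, since leaving out a library removes a requirement of the call.

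Peaks of SIANK 2 reached further out on both sides at most regions. Against NC 1, the lower and upper edges of SIANK 2 peaks each lay a median of 110 bp further out, and against NC 2 they lay 101 and 108 bp further out. SIANK 2 peaks spanned the whole NC peak at 63.5% of regions for NC 1 and 68.6% for NC 2, and lay inside it at 6.91% and 4.19%. At 29.7% and 27.3% they were shifted, with 1 edge further out and the other further in. The edges of SIANK 1 peaks lay 15 and 15 bp further out than those of NC 1, and 10 and 15 bp further out than those of NC 2. SIANK 1 spanned the NC peak at 31.9% and 31.7% of regions, against 28.4% at which NC 1 spanned NC 2. It lay inside the NC peak at 21.4% and 19.3%, against 28.4% for NC 1 inside NC 2. Shifted peaks made up 46.7% and 49.1%, against 43.3% between the NC libraries. SIANK 2 peaks also reached 78 and 79 bp beyond the edges of SIANK 1 peaks, so the 2 SIANK libraries differed from each other by more than SIANK 1 differed from NC.

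The regions with the largest length contrast held NC peaks of 335 to 625 bp and SIANK peaks of over 1 kb. They were ranked by the ratio of the shorter SIANK peak to the longer NC peak, which was 2.78 to 3.64 in the top 8. On chromosome 16 from 71301540 to 71303975, the NC peaks measured 478 and 373 bp and the SIANK peaks 1739 and 2177 bp. On chromosome 5 from 152505964 to 152507353, the NC peaks measured 416 and 384 bp and the SIANK peaks 1369 and 1359 bp. Here the SIANK libraries nearly coincided, as they did on chromosome 4 from 64968170 to 64969954, with NC peaks of 522 and 537 bp and SIANK peaks of 1763 and 1705 bp. On chromosome 5 from 120185027 to 120186874, NC held peaks of 549 and 625 bp, and SIANK held 1848 and 1793 bp. At 1 of the 8, on chromosome 6 from 89291663 to 89293325, the 4 peaks did not all overlap: the SIANK 1 peak of 1183 bp lay beside the NC peaks of 338 and 360 bp, and the SIANK 2 peak of 1624 bp covered both places. All 8 carried H3K27ac in NC 2 and in a SIANK library, a mark listed in NC 2 at 97.9% of the lengthened regions and 97.9% of the remaining regions with 1 peak per library. In the opposite direction, NC peaks of 1161 and 1008 bp stood against SIANK peaks of 405 and 430 bp on chromosome 2 from 198411938 to 198413098. On chromosome 1 from 98464263 to 98465712 they were 1184 and 1348 bp against 556 and 489 bp. In the 4 top-ranked regions with shorter SIANK peaks, the shorter NC peak was 1.61 to 2.34 times the longer SIANK peak, below the contrasts of the 8 lengthened regions.

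H3K27ac peaks at the same regions gave a readout from other libraries. Where the number 2 libraries each held 1 H3K27ac peak (5976 regions), the median log2 ratio of SIANK 2 to NC 2 in H3K27ac length was 0.05, against 0.35 for H3K23ac at those regions. It was 0.05 at the 2213 regions with longer H3K23ac in both SIANK libraries and 0.04 at the 3637 regions with neither call. In the number 1 libraries (1479 regions) the median H3K27ac ratio was 0.35 on the log2 scale, against 0.08 for H3K23ac. It was 0.38 at 556 regions with longer H3K23ac and 0.32 at 900 with neither call. Regions with longer H3K23ac peaks thus showed nearly the same H3K27ac length ratio as the remaining regions within each number, and the mark with the larger ratio differed between the numbers. With 1 library per mark, condition and number, this has no replicate check. The share of regions with any H3K27ac peak was also close in the 2 sets, at 97.9% and 97.9% in NC 2 and 99.0% and 98.8% in SIANK 2.

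Neighbouring H3K23ac peaks were joined more often in SIANK 2 than in any other library, and SIANK 1 had more separate peaks than either NC library. Over the 7420 constant regions, the mean number of peaks per region was 1.07 in NC 1, 1.07 in NC 2, 1.09 in SIANK 1 and 1.03 in SIANK 2. The difference between conditions was −0.0128 peaks per region (SE 0.0285, n = 2 each; exact two-sided permutation test, p = 1), inside the spread of the SIANK libraries. Without SIANK 2 it was 0.00633. Constant regions with 2 or more peaks numbered 496 and 448 in NC, 572 in SIANK 1 and 209 in SIANK 2. The most peaks in 1 constant region were 5 and 6 in NC, 6 in SIANK 1 and 3 in SIANK 2. SIANK 2 held fewer peaks than NC 1 at 414 regions and more at 117. SIANK 1 held fewer than NC 1 at 313 regions and more at 387, so the SIANK libraries went opposite ways.

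The same split was seen peak by peak. SIANK 2 had 449 peaks that overlapped 2 or more NC 1 peaks and 412 that overlapped 2 or more NC 2 peaks, and it had 588 such peaks over SIANK 1. In reverse, 89 NC 1 peaks, 84 NC 2 peaks and 155 SIANK 1 peaks joined 2 or more peaks of SIANK 2. SIANK 1 joined NC 1 peaks 248 times and NC 2 peaks 214 times, and was joined by them 225 and 259 times. Between the NC libraries, NC 1 joined NC 2 peaks 160 times and NC 2 joined NC 1 peaks 222 times. Joining by SIANK 1 was therefore about as frequent as joining between the NC libraries. These counts also grow with list length. Per 1000 of its peaks, SIANK 2 joined peaks of NC 1, NC 2 and SIANK 1 at 26.2, 24.0 and 34.3. NC 2 joined peaks of NC 1 and SIANK 1 at 20.7 and 24.2 per 1000. The ranges of the 2 libraries thus overlapped, though SIANK 2 had the highest rate for each joined list.

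Joining was most frequent across short gaps. Between neighbouring NC 1 peaks less than 500 bp apart, 1 SIANK 2 peak covered 244 of 397 gaps (61.5%), and between such NC 2 peaks 217 of 256 (84.8%). SIANK 1 covered 36.8% and 48.4% of the same gaps. NC 2 covered 32.2% of these NC 1 gaps and NC 1 covered 39.1% of these NC 2 gaps. For gaps from 500 to under 1000 bp, SIANK 2 covered 32.9% in NC 1 and 40.3% in NC 2, and for gaps from 1000 to under 2000 bp 9.51% and 9.53%. SIANK 2 also covered 62.4% of the gaps under 500 bp in SIANK 1. The smallest gap listed in SIANK 2, 308 bp, was close to that of NC 1, 305 bp, and below the 327 bp of NC 2 and the 323 bp of SIANK 1.

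**Figure D2:**
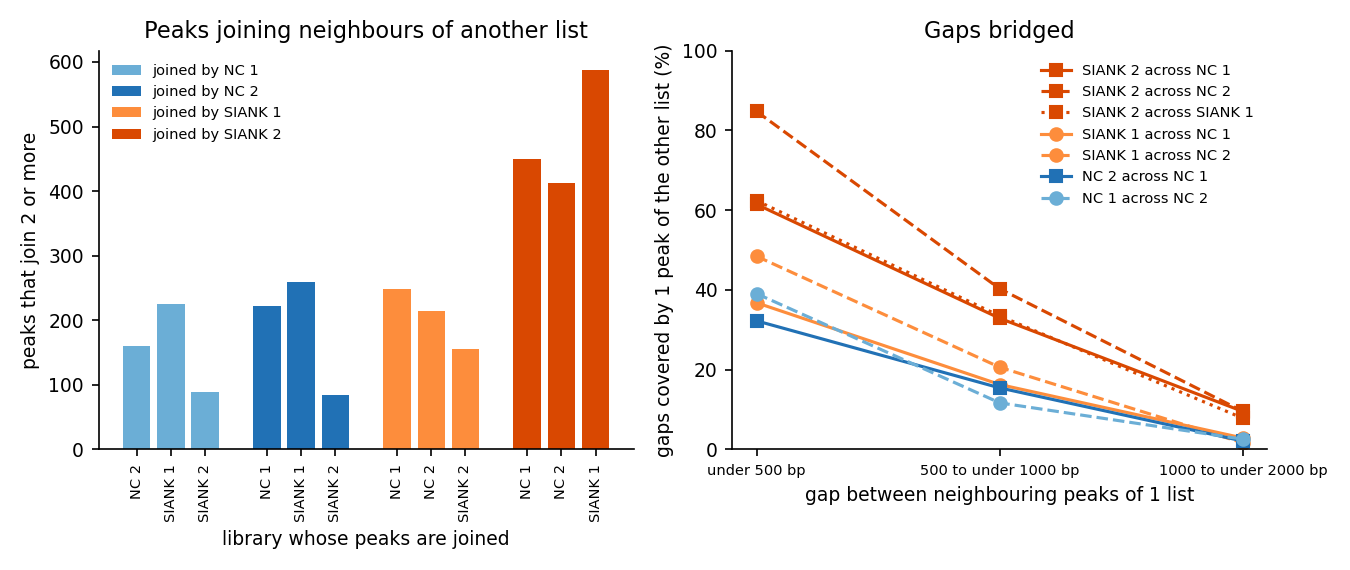
Left, number of H3K23ac peaks of a library (bar colour) that overlap 2 or more peaks of the library named under the bar. Right, percent of gaps between neighbouring peaks of 1 list that a single peak of another list covers, by gap length. SIANK 2 joins 412 to 588 times and the other libraries 84 to 259 times, counts that are not scaled to list length.

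Few regions were fused or split in both SIANK libraries. Fused regions, with fewer peaks in each SIANK library than in each NC library, numbered 62 of 7420 (0.836%), and split regions, with more in each, numbered 24 (0.323%). They were long, with medians of 2800 and 2607.5 bp against 1481.5 bp for constant regions. Only the 1078 constant regions with more than 1 peak in some library can be fused or split, and their median was 2612.5 bp. Fused regions numbered 227 without NC 1, 283 without NC 2, 158 without SIANK 1 and 68 without SIANK 2. Split regions numbered 39, 34, 62 and 220 in that order, so without SIANK 2 more regions were split than fused. That these counts rise is largely fixed by construction, since a requirement of the call is removed. Widening regions to take in peaks within 1000 bp, with the peaks still counted separately, gave 64 fused and 127 split regions. Separate peaks beside a region then add to its count, so these numbers do not show splitting within a peak.

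The fused regions with the widest contrast were domains of 5 to 10 kb. On chromosome 11 from 72445404 to 72454912, NC 1 held 4 peaks and NC 2 held 3, SIANK 1 held 2 and SIANK 2 held 1. Its peaks added up to 6469, 7910, 7735 and 9276 bp in the 4 libraries, so the single SIANK 2 peak covered more than the 4 peaks of NC 1. On chromosome 10 from 47181053 to 47186172, NC 1 held 2 peaks and NC 2 held 4, and each SIANK library held 1, of 4875 and 4936 bp. On chromosome 3 from 148400186 to 148410550, peaks numbered 4, 4, 3 and 2 in NC 1, NC 2, SIANK 1 and SIANK 2. Another top-ranked fused region of chromosome 3, from 148213773 to 148219753, had 3, 3, 2 and 1 peaks. Among split regions, that on chromosome 20 from 3436846 to 3440866 held 1 peak in each NC library, of 3765 and 3046 bp, and 3 in each SIANK library, with sums of 2372 and 2649 bp. On chromosome 8 from 61747909 to 61753922, peaks numbered 1 and 2 in NC and 4 and 3 in SIANK. H3K27ac was listed in NC 2 and SIANK 2 at all 62 fused and all 24 split regions, near the 98.1% and 99.0% of constant regions that carried it in these libraries. At fused regions the mean number of H3K27ac peaks was 1.58 in NC 2 and 1.35 in SIANK 2, and at split regions it was 1.5 and 1.38. In the number 1 libraries the order was the reverse, with means of 0.435 in NC 1 and 0.677 in SIANK 1 at fused regions. At split regions they were 0.333 and 0.458. Over all constant regions the means were 0.263 in NC 1 and 0.448 in SIANK 1, and 1.05 in both NC 2 and SIANK 2. The rise in the number 1 libraries was thus not particular to fused or split regions.

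**Figure D3:**
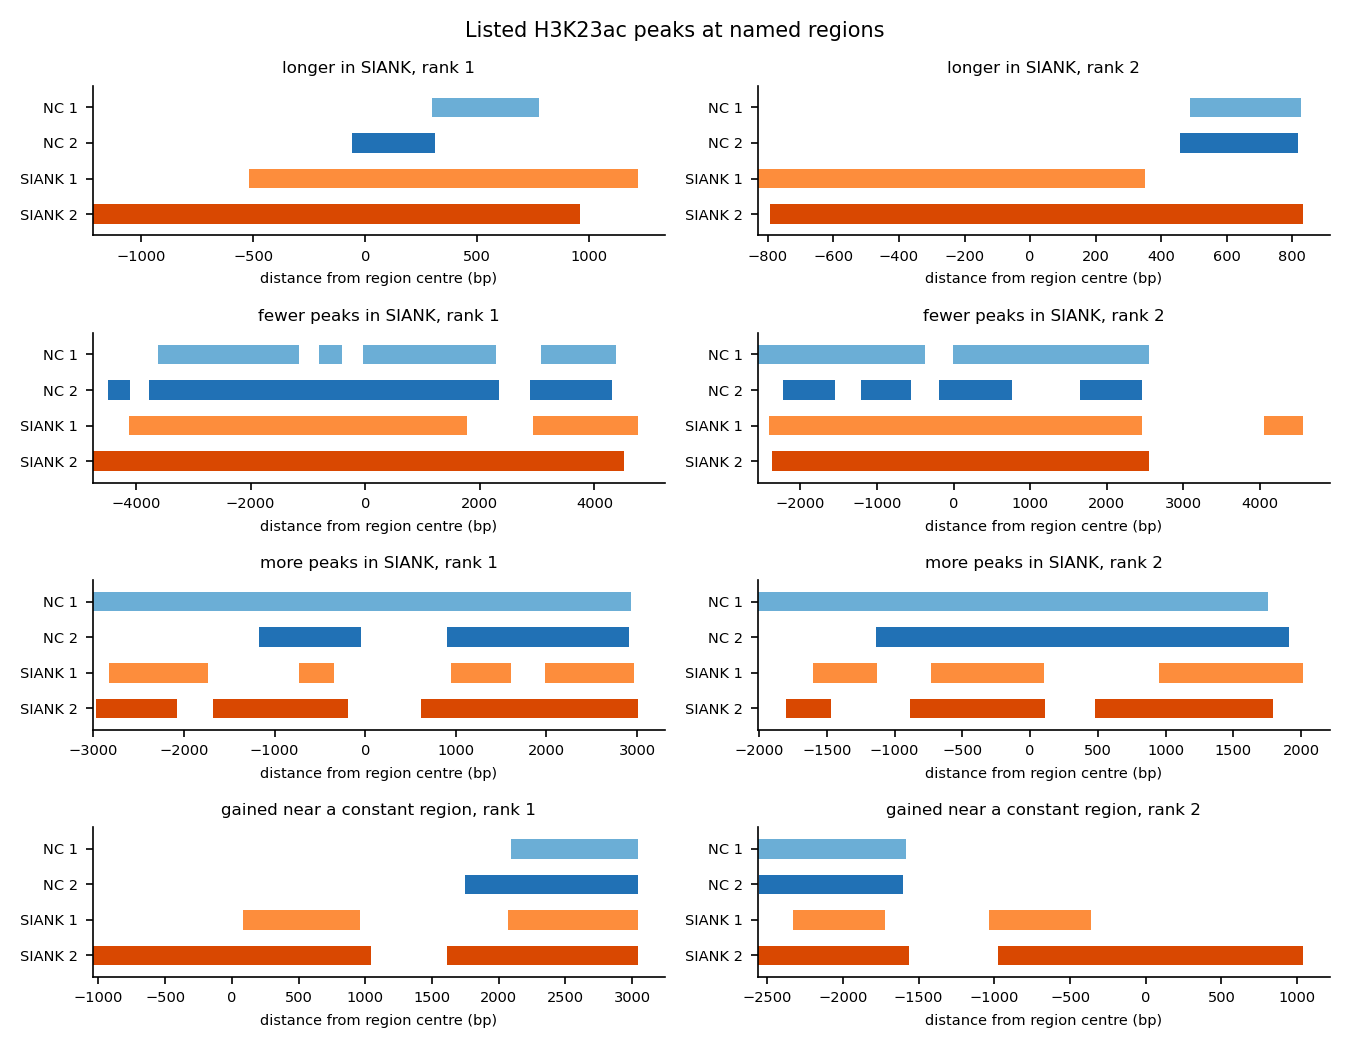
Listed H3K23ac peaks of the 4 libraries as bars against distance from the region's centre (bp), for the top 2 regions of 4 kinds, with up to 2 kb on either side. Rank 1 with fewer peaks in SIANK goes from 4 and 3 peaks in NC to 2 and 1 in SIANK, and rank 2 with more peaks goes from 1 and 1 to 3 and 3.

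The distance from condition-specific peaks to constant regions varied more between the NC libraries than between conditions. A specific peak overlapped no peak of the other condition. There were 1936 in NC 1, of 12909 peaks, 240 in NC 2 (2.24%), 3941 in SIANK 1 (27.5%) and 4964 in SIANK 2 (29.0%). Their median gap to the nearest constant region was 48.7 kb in NC 1, 24.0 kb in NC 2, 29.4 kb in SIANK 1 and 37.4 kb in SIANK 2. The SIANK values fell between the NC values. On the log2 scale the conditions differed by −0.04 (SE 0.54, n = 2 each; exact two-sided permutation test, p = 1). Within number 1 the log2 difference was −0.73 and within number 2 it was 0.64, so the replicate numbers went opposite ways. Without NC 1 the difference was 0.45, and without NC 2 it was −0.59. Without SIANK 1 it was 0.11, and without SIANK 2 it was −0.14. The percent of specific peaks within 10 kb of a constant region was 21.2 in NC 1, 32.5 in NC 2, 31.4 in SIANK 1 and 26.5 in SIANK 2. In SIANK 1, 130 specific peaks (3.30%) lay inside a constant region, between or beside its peaks, against 27 (0.544%) in SIANK 2, 2 in NC 1 and 5 in NC 2.

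Gained regions lay near constant regions about as often as constant regions lay near each other, and a larger part of them lay far away. The median gap was 39.5 kb from a gained region to the nearest constant one and 31.8 kb from a constant region to the nearest other. Within 10 kb lay 25.6% of gained regions (exact 95% binomial interval 23.4 to 27.8) and 26.8% of constant regions (25.8 to 27.8). Within 1 kb lay 5.48% and 6.12%. Within 50 kb lay 55.4% of gained regions (52.9 to 57.9) and 60.4% of constant regions (59.3 to 61.5), and within 100 kb 70.2% (67.8 to 72.4) and 76.3% (75.3 to 77.3). At these wider limits the intervals did not meet. These intervals cover counting error over regions and not the spread between libraries. Regions held by SIANK 1 alone had 9.08% within 1 kb, and those of SIANK 2 alone 6.71%. Within 100 kb lay 65.6% of regions of NC 1 alone and 77.4% of NC 2 alone. For SIANK 1 alone and SIANK 2 alone the shares were 74.9% and 70.2%. A larger far part was thus not particular to gained regions. Of the 1569 gained regions on chromosomes with a constant region, 468 (29.8%) lay over 100 kb away and 86 lay within 1 kb. Their median peak length was 554.5, 554.0, 528.5 and 528.0 bp in SIANK 1 within 1 kb, over 1 to 10 kb, over 10 to 100 kb and over 100 kb. In SIANK 2 it was 525.5, 598.0, 598.0 and 548.5 bp, so the nearest peaks were the shortest in SIANK 2 and not in SIANK 1. With peaks at or above the pooled median length the median gap of gained regions was 90.6 kb, and with coverage of at least 50% of a region it was 77.4 kb, both settings that also leave fewer constant regions.

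The longest gained regions within 1 kb of a constant one held separate peaks that were longer in SIANK 2 than in SIANK 1. On chromosome 8 from 21990868 to 21992953, peaks were 876 bp in SIANK 1 and 2086 bp in SIANK 2, 570 bp from a constant region. On chromosome 2 from 187995879 to 187997949, they were 677 and 2015 bp at a gap of 529 bp. On chromosome 5 from 105007546 to 105009485, they were 370 and 1914 bp at a gap of 159 bp. At the other end, the farthest gained region lay 5162 kb from a constant one, on chromosome 14 from 94477777 to 94478352, where the SIANK peaks measured 576 and 529 bp. Next in rank came chromosome 4 from 15783585 to 15784112 (441 and 473 bp), and then chromosome 2 from 109385894 to 109386661 (385 and 659 bp). No H3K27ac peak was listed at the latter regions in any library, and 1 was listed in SIANK 2 at the region on chromosome 14.

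**Figure D4:**
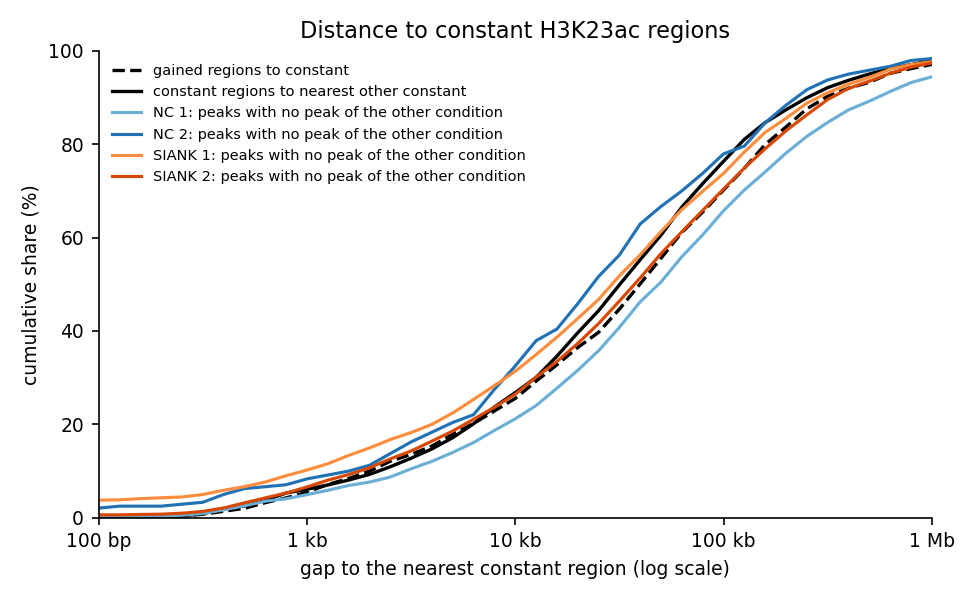
Cumulative percent of H3K23ac peaks or regions against the gap to the nearest constant region (log scale), for gained regions, constant regions and the condition-specific peaks of each library. At 10 kb the curves lie between 21.2% (NC 1) and 32.5% (NC 2), with both SIANK libraries and gained regions between them.

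Both SIANK libraries held more H3K23ac peaks than both NC libraries on 19 of chromosomes 1 to 20. The exception was chromosome 3, with 1084 and 845 peaks in NC and 1078 and 1269 in SIANK. The ratio of SIANK to NC ran from 1.22 on chromosome 3 to 1.47 on chromosome 18. Within number 1 it ran from 0.994 to 1.33 over the chromosomes and within number 2 from 1.48 to 1.75, so the ranges of the numbers did not meet. With lists of equal length, both SIANK libraries held more peaks on 3 chromosomes. Peak length at shared regions was compared by chromosome as well. On 19 of the 20 chromosomes the geometric mean was higher in both SIANK libraries than in both NC libraries, with log2 ratios of 0.20 to 0.36. On chromosome 2, the exception, NC 1 and NC 2 were at 886 and 898 bp, and SIANK 1 and SIANK 2 at 896 and 1176 bp. All chromosomes come from the same 4 libraries. Both counts of 19 therefore largely restate the differences between whole lists and are not repeated support for them.

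As a share of each list, the chromosomes shifted little. The share was higher in both SIANK libraries on 5 chromosomes (4, 5, 13, 14 and 18), lower in both on 4 (3, 6, 8 and 10) and overlapped on 11. Chromosome 10 took 9.13% and 8.82% of the NC lists and 8.56% and 8.37% of the SIANK lists. Chromosome 3 took 8.40% and 7.88% in NC and 7.51% and 7.40% in SIANK. Chromosome 18 took 2.48% and 2.89% in NC and 2.97% and 2.92% in SIANK, a step that lay mainly between NC 1 and the other 3 libraries. Chromosome 4 likewise took 5.44% in NC 1, and 6.13%, 6.17% and 6.22% in NC 2, SIANK 1 and SIANK 2.

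The gained share of merged regions was highest on chromosome 18, where 63 of 588 regions (10.7%, exact 95% binomial interval 8.33 to 13.5) were gained, and lowest on chromosome 16, with 32 of 639 (5.01%, 3.45 to 7.0). Against the 7.34% over all regions, the interval lay above on chromosomes 4 (9.57%), 14 (9.72%) and 18, below on chromosomes 10 (5.52%) and 16, and held it on the other 15. These intervals take regions as independent. Both extremes came near the overall share when certain libraries were left out. The share on chromosome 18 was 1.46 times the overall share with all libraries and 1.07 times without NC 1. The share on chromosome 16 was 0.682 times the overall share, 1.02 times without SIANK 2 and 0.958 times without SIANK 1. Across the 20 chromosomes, gained regions per Mb followed constant regions per Mb (Spearman's rho 0.71, Pearson's r 0.82), from 0.354 and 1.69 per Mb on chromosome 2 to 1.14 and 5.03 per Mb on chromosome 12. The gained percent did not follow that density (rho −0.06, r −0.15). Chromosomes share the 4 libraries, and both densities are per Mb of the same span, so these are descriptions.

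Gained regions occurred in many windows along the chromosomes, and some windows held several. Of 2100 windows of 1 Mb with any region, 908 held a gained one, and 519 of these held exactly 1. A further 223 held 2, 99 held 3, 38 held 4, 18 held 5 and 9 held 6. Constant regions were not counted by window, so clustering of gained regions beyond that of other regions was not tested. The fullest windows held 7, on chromosome 4 from 157 to 158 Mb, among 49 regions of which 19 were constant, and on chromosome 19 from 59 to 60 Mb, among 60 regions of which 29 were constant. Among the 9 windows with 6, that on chromosome 4 from 126 to 127 Mb held only 16 regions, of which 3 were constant. The median gap from a gained region to the nearest other gained one was 227 kb.

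**Figure D5:**
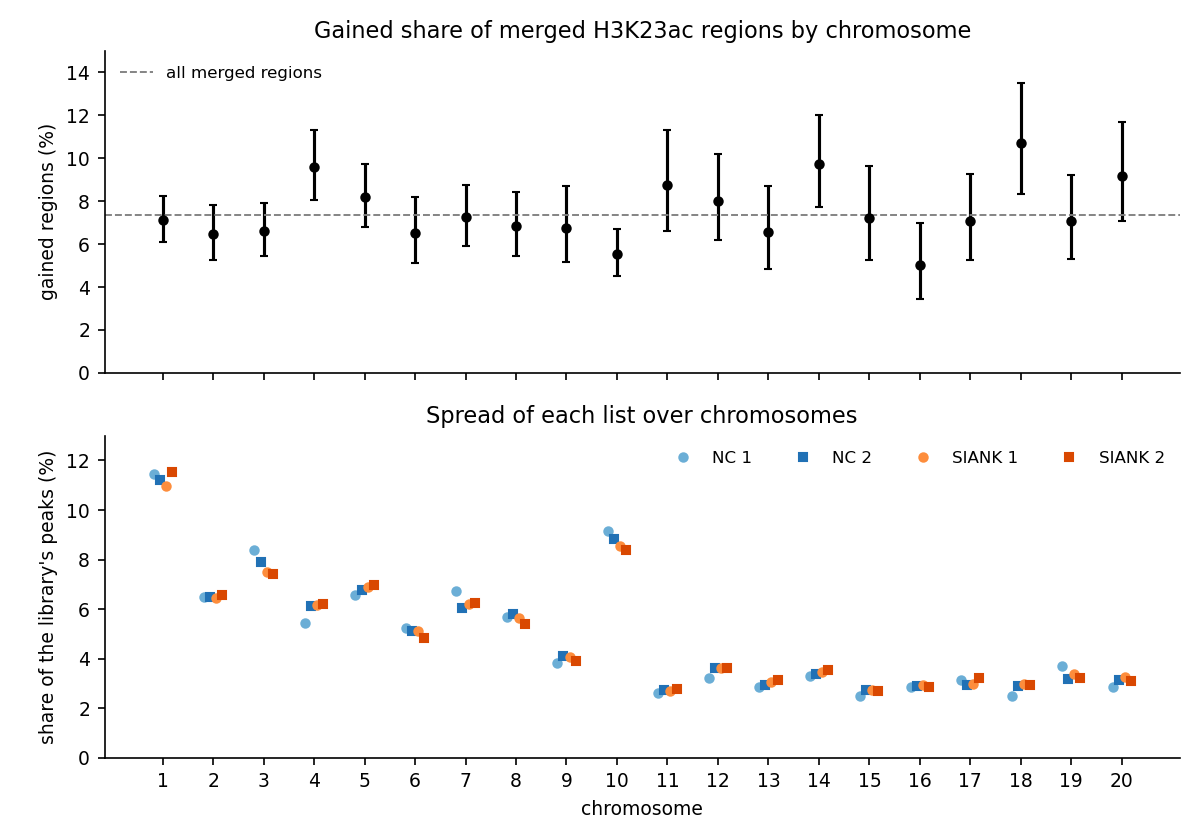
Top, percent of merged H3K23ac regions that were gained on each of chromosomes 1 to 20, with exact 95% binomial intervals and the 7.34% over all regions as a dashed line. Bottom, percent of each library's peaks on each chromosome. Chromosome 18 is highest at 10.7% and chromosome 16 lowest at 5.01%, while the 4 libraries nearly coincide on most chromosomes.

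The other acetyl marks were rarer at gained than at constant H3K23ac regions, in libraries of either condition. H3K27ac peaks were listed at 50.3% of gained and 98.1% of constant regions in NC 2, and at 63.7% and 99.0% in SIANK 2. In the shorter number 1 lists the shares were 5.47% and 25.6% in NC 1, and 11.9% and 43.3% in SIANK 1. H4K5ac was listed at 1.21% of gained and 2.28% of constant regions in NC 2, and at 4.52% and 9.84% in SIANK 2. Gained regions are shorter than constant ones, so a peak of another mark has less length to overlap. Gained regions within 10 kb of a constant one carried H3K27ac at 53.1% in NC 2 and 66.6% in SIANK 2, and those farther away at 49.3% and 62.8%. Being near a constant region therefore went with a share a few points higher in both libraries. In the number 1 lists the order was the reverse, at 3.49% near and 6.16% far in NC 1 and at 6.48% and 13.7% in SIANK 1.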

How the data were processed

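The authors deposited 1 peak list per library, with the chromosome, start, end and length in bp of each peak, per the file headers. BWA and deepTools are named in the submitters' processing notes without versions. No source used here gives the peak caller, threshold, control or build. Lists can lengthen with depth or a looser threshold, which the files cannot tell apart from more marked chromatin. Groups and replicate numbers came from sample titles.

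Peaks overlapping by 1 bp or more were merged, and bedtools 2.31.1 gave the same 21414 regions. Per-library values were compared on the log2 scale (peaks per region untransformed) by exact two-sided permutation of conditions over 6 arrangements. Named regions followed fixed rankings: 10 gained and 5 lost by length percentile, 8 lengthened, 4 shortened, 5 fused, 5 split, and 3 each of the farthest gained and of the longest gained within 1 kb. The text gives some in full. Members, rankings and tests were chosen with earlier results of these data known. On simulated lists, 100% of 200 gained, 100 lost, 200 fused and 100 split regions were recovered; these were placed apart, so this checks counting only. Alternatives were merging within 1000 bp, longer peaks only, equal lists, 50% coverage, other length classes, a replicate block and leaving out each library. The code ran on Python 3.11.15 with scipy 1.17.1, numpy 2.4.6, matplotlib 3.10.9 and pandas 2.3.3.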

Additional observations from a re-analysis of the deposited data

Results flagged for a closer look

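Outside chromosomes 1 to 20, chromosome Y held 3 H3K23ac peaks in each SIANK library, against 1 in NC 1 and 0 in NC 2. It is listed here because these peaks enter none of the chromosome comparisons and both SIANK counts lay above both NC counts. Counts this low give no comparison. Chromosome X, also outside chromosomes 1 to 20, held 184 peaks in NC 1 and 131 in NC 2. It held 180 in SIANK 1 and 239 in SIANK 2, so the conditions overlapped there.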

How the results depend on the processing

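Of 193 values under alternatives, 141 kept their direction or stayed within 1.5 times the reported count, 44 moved beyond that or beyond their interval, and 8 reversed. This tally does not measure robustness. Tested differences were judged by sign alone, and the replicate block repeats the reported differences. The tally also holds counts of named regions called again, which for gained and lost regions cannot fall when a library is left out. The main comparisons account for 24 of the moved and 8 of the reversed values. No alternative could pass the threshold of 0.05. Leaving out each library removes a requirement of the region counts, which then rise largely by construction. It gave 2673 to 4964 gained, 53 to 1936 lost, 68 to 283 fused and 34 to 220 split regions. It gave −0.0787 to 0.0115 for the longest minus the shortest class, −0.0422 to 0.00633 peaks per constant region and a log2 gap difference of −0.59 to 0.45. Peaks at or above the pooled median length gave 801 gained, 15 fused and 8 split regions and a gap difference of 0.14, with no peak left in the shortest class. Equal lists gave 508 gained, 284 lost and 10 split regions and 3 chromosomes with more peaks in both SIANK libraries. Such lists cannot differ in peak number, and the cut removes more short peaks from the SIANK lists than from the NC lists. Coverage of 50% gave 34 fused and 6 split regions and a gap difference of 0.16. Merging within 1000 bp gave 127 split regions and 0.0329 more peaks per constant region in SIANK. There the regions were widened and the peaks inside them still counted separately. Classes from SIANK lengths alone turned the class difference to 0.45. The cause of these shifts was not tested beyond what the settings fix by construction. With the replicate number as a block (exact permutation, 4 arrangements, smallest p = 0.5), differences keep their size by construction: 0.42 for peak number, 0.27 for length, −0.07 for classes, −0.0128 for peaks per region and −0.04 for gaps. Differences between number 1 and number 2 correlated at −0.02 between conditions (peak length, 6342 regions). Peak length by region thus showed no pattern shared by number. That cannot tell whether libraries of the same number shared a culture or batch. The 2 alternatives on H3K27ac classes and on overlapping peaks were added after seeing the data. Depth is unknown.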
